A study of Mus musculus with 10 samples.

Results

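Amino acids and monocarboxylates such as lactate and pyruvate cross the plasma membrane and the lysosomal membrane through carriers of the solute carrier (SLC) superfamily. Genes whose symbols belong to the families Slc1, Slc3, Slc6, Slc7, Slc16, Slc36, Slc38 and Slc43 were followed here across the cells of the embryonic mouse pancreas. Of 73 symbols that matched, 65 had at least 20 UMIs (unique molecular identifiers, each counted as 1 transcript) over all libraries and were kept as members. They comprised 7 genes of Slc1, 2 of Slc3, 13 of Slc6, 13 of Slc7, 14 of Slc16, 3 of Slc36, 10 of Slc38 and 3 of Slc43, among 27716 genes listed in every library. The lowest members kept were Slc6a7 with 31 UMIs, Slc6a12 with 40 and Slc6a2 with 43, and the highest symbols left out included Slc36a3 with 6 and Slc7a15 with 4. The members held 483198 UMIs, of which Slc38a5 alone held 39.8%.

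The families differ in substrate and in how they are driven. Slc1 genes encode sodium-coupled glutamate carriers and neutral amino acid exchangers, and Slc6 genes encode sodium- and chloride-coupled carriers of amino acids, taurine, creatine and neurotransmitters. Slc7 genes encode cationic amino acid carriers and the light chains of heteromeric exchangers, whose heavy chains are Slc3a2 (CD98) and Slc3a1. Slc38 genes encode sodium-coupled carriers of glutamine and other small neutral amino acids, Slc36 genes proton-coupled carriers, Slc43 genes carriers of large neutral amino acids (with Slc43a3 a purine nucleobase carrier), and Slc16 genes the monocarboxylate carriers and their relatives for aromatic amino acids and creatine. Pancreatic acinar cells make large amounts of secreted protein, and amino acids both feed and stimulate the hormone-producing endocrine cells.

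Single-cell suspensions of pooled pancreata were profiled with droplet RNA sequencing. In 4 libraries of live cells from Swiss Webster embryos, made with the version 1 (v1) kit, there were 2 batches at E14.5 and 1 library each at E12.5 and E17.5. In 3 Swiss Webster libraries made with the version 2 (v2) kit after cells positive for CD140a (Pdgfra, a mesenchymal surface protein) had been removed, there was 1 for each of the same stages, that at E17.5 captured in 2 wells that were summed as technical repeats. The eighth library came from Fev-Cre; ROSA26 mTmG embryos at E14.5, in which cells with a history of Fev expression carry membrane GFP and the others TdTomato, and GFP+ and TdTomato+ cells were captured with the v2 kit. Dissociation lasted 10 min at E12.5, 15 min at E14.5 and 30 min at E17.5, so stage, dissociation time and litter cannot be told apart. Each library is 1 pool, and n below counts libraries.

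Library totals ran from 15671934 to 196793242 UMIs and the median barcode from 3084 to 10252 UMIs. Globin transcripts took 0.0128% to 60.9% of a library's UMIs. Of 66017 barcodes, 57982 had at least 200 genes, and 50210 of these fell into 7 classes after clustering without any member gene. The classes are acinar-like (8053 cells), ductal-like (6767), endocrine-like (7973), mesenchymal-like (20378), endothelial-like (687), immune-like (3305) and erythroid-like cells (3047, none in the Fev-Cre library), named by marker genes and written below without the suffix. In every library the summed markers of a class were highest in that class, which is no separate check, since the same markers named the classes. The largest value of any other class reached 30.3% of the own-class level for acinar markers and 3.67% for endocrine markers. Endocrine cells were divided in the same way into Ngn3+ progenitors (1787 cells), Fev+ cells (1400), alpha (2044), beta (1481), delta (292) and epsilon cells (310), with 659 unnamed. Levels are given as CPM, the UMIs of a gene among all UMIs of a class in a library, scaled to the same total for each. Fold changes and adjusted p-values are from edgeR's quasi-likelihood test on the class sums, with TMM scaling and Benjamini-Hochberg adjustment over all genes tested. A gene is called changed at adjusted p under 0.05 with at least a 2-fold difference.

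Slc38a5, a sodium-coupled carrier of glutamine, asparagine, serine and glycine that runs in exchange with protons, dominated the members and was the transporter most tied to the endocrine class. It lies at chrX:8271133-8280179 on the plus strand (GRCm38). In alpha cells its level was 17583 and 11770 CPM at E12.5 (v1 and v2 kits), 7721 and 8404 CPM in the v1 batches at E14.5, 6562 CPM in the v2 library and 4604 CPM in the Fev-Cre library at E14.5, and 5017 and 2394 CPM at E17.5 (v1 and v2). Alpha cells had the highest level of the endocrine classes with at least 20 cells in 8 of 8 libraries, which at E12.5 were Ngn3+ and alpha cells (v1) and these with Fev+ cells (v2), and within each kit the E12.5 value was above the E17.5 value. Fev+ cells followed with 8365 CPM at E12.5 (v2), 3515, 5068, 3434 and 2179 CPM at E14.5 (v1 batches, v2 and Fev-Cre), and 3022 and 1500 CPM at E17.5. Ngn3+ progenitors were lower, with 2236 and 1360 CPM at E12.5, 248 to 909 CPM in the E14.5 libraries and 239 and 246 CPM at E17.5. Beta cells ran from 491 to 4333 CPM in 6 libraries, epsilon cells from 1071 to 3695 CPM in 3 and delta cells from 305 to 1359 CPM in 4. Across libraries the alpha range did not overlap those of Ngn3+ and delta cells but did overlap those of Fev+, beta and epsilon cells, and within a library the order was more stable. Slc38a5 was higher in Fev+ than in Ngn3+ cells in 7 of 7 libraries that held both, higher in alpha than in Fev+ cells in 7 of 7, and higher in alpha than in beta cells in 6 of 6.

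**Figure D1:**
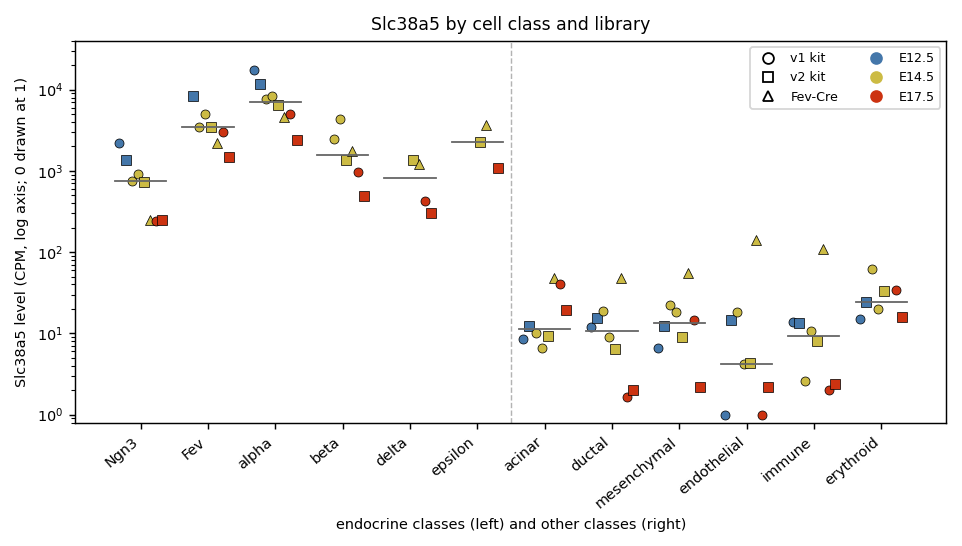
Slc38a5 level (CPM, log axis, 0 drawn at 1) in each cell class and library, with kit as marker shape, stage as colour and the median as a bar. Alpha cells are the highest endocrine class with at least 20 cells in 8 of 8 libraries, and every endocrine value lies above every value of the other classes.

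The promoter of Slc38a5 is shown together with those of 2 other members that rose between Ngn3+ and Fev+ cells, Slc38a11 and Slc7a8, since Neurog3 belongs to a class of factors that bind E-boxes. Each sequence runs from 250 bases before to 20 bases after the annotated start (RefSeq, GRCm38.p6), 5′ to 3′ on the strand of the gene, and capitals mark the E-box CAGATG searched on both strands. These starts can differ from the GENCODE gene positions. Nearly all of the Slc38a5 window lies inside the gene as placed above, and the marked E-box of Slc7a8 lies inside its GENCODE gene (chr14:54722209-54781946).
Slc38a5, chrX:8271131-8271400, plus strand: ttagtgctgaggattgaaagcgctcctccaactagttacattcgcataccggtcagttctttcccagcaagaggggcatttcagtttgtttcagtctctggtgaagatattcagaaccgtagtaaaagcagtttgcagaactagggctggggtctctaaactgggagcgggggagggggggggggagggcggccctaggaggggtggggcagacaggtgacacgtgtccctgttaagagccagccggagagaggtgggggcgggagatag
Slc38a11, chr2:65364007-65364276, minus strand: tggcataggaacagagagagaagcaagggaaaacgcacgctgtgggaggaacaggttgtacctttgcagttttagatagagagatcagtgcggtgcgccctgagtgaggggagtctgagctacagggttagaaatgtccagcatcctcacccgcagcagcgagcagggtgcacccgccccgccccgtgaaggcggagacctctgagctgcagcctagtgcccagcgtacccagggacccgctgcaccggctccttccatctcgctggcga
Slc7a8, chr14:54781867-54782136, minus strand: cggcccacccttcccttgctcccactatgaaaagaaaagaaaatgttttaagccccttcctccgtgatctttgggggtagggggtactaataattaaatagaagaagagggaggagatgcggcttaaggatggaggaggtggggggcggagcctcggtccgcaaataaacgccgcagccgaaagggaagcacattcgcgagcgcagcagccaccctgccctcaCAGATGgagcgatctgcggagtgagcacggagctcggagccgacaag

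These letters were found in 17.2% of 32851 mouse promoters of 300 bases and in 8 of 62 promoters of the 45 members that could be matched. Of the 8 members called higher in Fev+ than in Ngn3+ cells, 6 had a promoter in the table, and of these only Slc7a8 held the motif, starting 27 bases before its start site. Slc43a1, 1 of the 3 that fell at this step, held it too, at position -228 from the start. A match is a description of the letters, and the windows of Slc38a5 and Slc38a11 do not hold CAGATG. Other E-boxes, of the form CANNTG, were not searched. The Slc38a5 window holds the E-boxes CAGGTG and CACGTG, which are not marked, so the search does not show a window without E-boxes.

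Outside the endocrine class, Slc38a5 counts were read against the counts that free RNA in droplets can add, by setting them beside the endocrine markers found in the same cells. The Slc38a5 level ran from 6.62 to 47.6 CPM in acinar, 1.64 to 47.4 CPM in ductal, 2.16 to 56.0 CPM in mesenchymal, 0 to 143 CPM in endothelial and 2.00 to 109 CPM in immune cells, with the highest values in the Fev-Cre library, where endocrine cells were most numerous. In ductal cells the Slc38a5 level, as a percent of its endocrine level, was below the same percent for summed endocrine markers in 8 of 8 libraries (medians 0.281% and 0.467%). Erythroid cells, at 14.9 to 62.0 CPM, were above that mark in 7 of 7 libraries, with medians of 1.70% for Slc38a5 and 0.209% for the endocrine markers. Acinar and immune cells were above it in 4 of 8 libraries each, endothelial cells in 2 and mesenchymal cells in 1. In acinar cells the gap was widest at E17.5, with 2.21% against 0.129% in the v1 library (3 UMIs in 23 cells) and 2.27% against 0.706% in the v2 library (394 UMIs). After each cell was thinned to 2000 UMIs, Slc38a5 had a UMI in a median of 98.2% of alpha cells, 86.3% of Fev+ cells, 34.9% of Ngn3+ cells, 2.61% of acinar cells and 2.31% of ductal cells. Unthinned, these medians were 98.8%, 95%, 47.5%, 11.5% and 4.62%, with median depths of 3014 to 10138 UMIs in alpha and 3869 to 12520 UMIs in ductal cells.

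Through the endocrine lineage, 20 members had enough UMIs to be tested, and 8 of them rose and 3 fell from Ngn3+ to Fev+ cells. Over all 8254 genes tested, 7.86% were called higher and 8.81% lower. Without the Fev-Cre library 7 members rose and none fell, and 1 fell with the Fev-Cre alignment without reporters, with no library term or at a Leiden resolution of 2. Without the Fev-Cre library, however, Slc16a5 and Slc43a1, which fell in the main fit, were not tested. At least 1 of the 3 that fell was likewise not tested in each of the other settings. Slc38a5 rose by a log2 fold change of 2.49 ± 0.18 (SE, adjusted p = 3.09e-13), which is 5.62-fold. Slc38a11, a little-studied relative of Slc38a5 at chr2:65316430-65364034, had its highest level in Fev+ cells. Its Fev+ level was 4.75 CPM at E12.5, 33.3, 37.0, 11.2 and 11.3 CPM at E14.5 (v1 batches, v2 and Fev-Cre), and 69.2 and 32.3 CPM at E17.5. In Ngn3+ cells Slc38a11 was at 0 in 5 of 8 libraries and reached 7.21 CPM at most, so the difference of 3.31 ± 0.47 on the log2 scale (adjusted p = 5.46e-07) rests on 159 UMIs in Fev+ and 21 in Ngn3+ cells.

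The other 6 that rose were Slc7a2, Slc16a10, Slc7a14, Slc16a12, Slc7a8 and Slc16a6. Slc7a2, a cationic amino acid carrier that takes up arginine and lysine, went from a median of 7.94 CPM in Ngn3+ to 31.9 CPM in Fev+ and 115 CPM in alpha cells. Slc7a2 rose by 2.04 ± 0.33 from Ngn3+ to Fev+ cells (log2, adjusted p = 4.69e-06) and by 1.72 ± 0.26 from Fev+ to alpha cells (adjusted p = 7.19e-06). Slc16a10, a carrier of aromatic amino acids, had medians of 0.390, 27.6 and 127 CPM in Ngn3+, Fev+ and alpha cells, and its alpha level of 63.4 to 183 CPM did not overlap its Fev+ level of 10.1 to 53.6 CPM. Slc7a14, a lysosomal relative of the cationic carriers, rose at both steps, by 1.67 and 1.29 on the log2 scale. Slc16a12, a creatine carrier, rose by 1.93 from Ngn3+ to Fev+ cells, the exchanger light chain Slc7a8 by 1.41 and the ketone body carrier Slc16a6 by 1.48.

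The 3 members that fell from Ngn3+ to Fev+ cells were Slc16a5, Slc43a1 and Slc7a5. Slc16a5, a monocarboxylate carrier relative, was seen in Ngn3+ cells of 8 of 8 libraries at 3.51 to 34.0 CPM and had no UMI in Fev+ cells of any of 7 libraries. With 125 UMIs in the Ngn3+ cells of those 7 libraries and a limit of 3 UMIs over all Fev+ cells, Slc16a5 was at least 28.6-fold lower in Fev+ cells. Slc43a1, a carrier of large neutral amino acids, fell by 3.13 ± 0.50 (log2, adjusted p = 4.15e-06). Slc7a5, the light chain that pairs with Slc3a2 to import leucine and other large neutral amino acids, fell by 1.05 ± 0.28 (adjusted p = 0.00262), from a median of 54.1 to 19.8 CPM, with overlapping ranges. It was under 2-fold with plain totals (-0.95), at a Leiden resolution of 2 (-0.96) and without the first v1 E14.5 batch (-0.98), the v1 E17.5 (-0.89) or the Fev-Cre library (-0.85). Slc3a2 itself, at 88.1 to 218 CPM in Ngn3+ and 42.8 to 245 CPM in Fev+ cells, and the taurine carrier Slc6a6 were not called (log2 differences of -0.15 and -0.23), nor were Slc38a2 (-0.39) and Slc38a1 (-0.56).

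Between Fev+ and alpha cells 3 members rose and 2 fell, with 4.02% of all genes called higher and 2.75% lower. Slc16a10 (2.05 ± 0.33), Slc7a2 and Slc7a14 rose. Slc38a1, a sodium-coupled carrier of glutamine and other small neutral amino acids, fell by 2.89 ± 0.29 (adjusted p = 4.1e-09), from 38.4 to 80.0 CPM in Fev+ cells to 0 to 14.1 CPM in alpha cells, with no overlap. Slc38a11 fell by 3.19 ± 0.46. With plain totals 44.4% of all calls were higher, beside 59.4%, with the same counts of members, while 5 members rose with RLE size factors, at a Leiden resolution of 2, without a filter or without the v1 or v2 E12.5 library. The step in Slc38a5 was 0.98 ± 0.17 (adjusted p = 4.91e-05), just under 2-fold, and was therefore not called. Slc3a2 and Slc6a6 differed by -0.05 and -0.12, and Slc38a2, a glutamine carrier that amino acid shortage is known to induce, by -0.55 (adjusted p = 0.0208, under 2-fold).

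Alpha and beta cells differed in 5 members, 3 higher and 2 lower in alpha cells, against 4.29% and 4.16% of all genes. Slc38a5 was higher in alpha cells by 1.5 ± 0.18 (log2, adjusted p = 8.09e-08) and Slc16a10 by 1.09 ± 0.31 (adjusted p = 0.00965). The Slc16a10 call was lost by DESeq2 (1.09, adjusted p = 0.165) and with no library term (0.89, adjusted p = 0.209). Slc38a1 was lower in alpha cells by 2.51 ± 0.30 (log2 difference -2.51, adjusted p = 3.75e-08) and Slc16a6 by 1.48 (log2 difference -1.48). Slc38a11 was called higher as well, but on 21 UMIs in alpha against 1 in beta cells over the 6 libraries with both, a ratio of 27.9 with a 95% counting interval of 4.48 to 1152, and it was not called when the Fev-Cre alignment without reporters was used, doublets were kept, the library term was dropped or the v2 E17.5 library was left out. In these 4 settings the whole count of members fell to 3, 3, 2 and 3. With plain totals in place of TMM scaling, 76.1% of all calls were higher in alpha cells, beside 50.8%. Slc3a2 (-0.57) and Slc6a6 (-0.64) were lower in alpha cells at adjusted p = 0.00127 and 0.000245, under 2-fold.

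**Figure D2:**
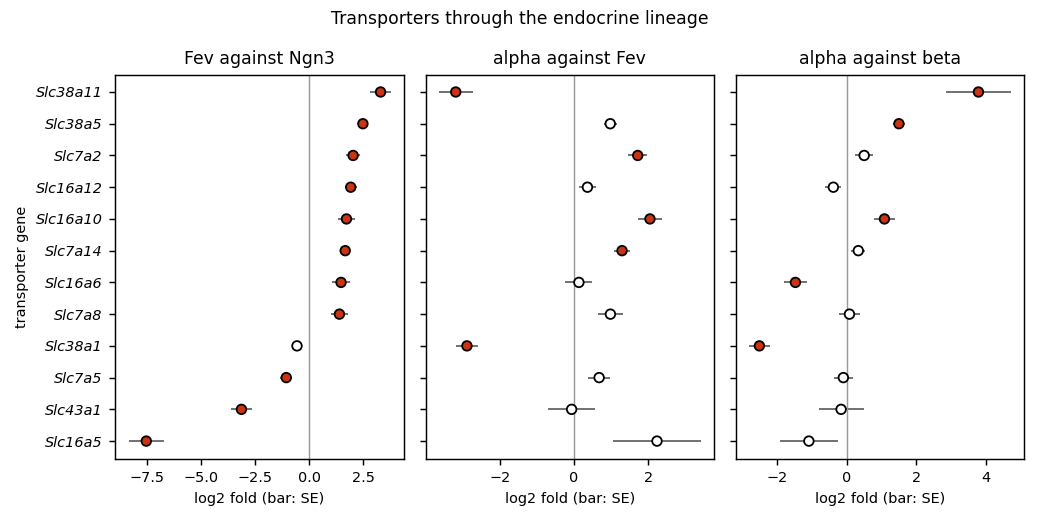
Log2 fold change with SE for the 12 members called in at least 1 of 3 endocrine comparisons, each over all libraries that hold the classes. Red points passed the test with at least a 2-fold change. Slc38a5 rises from Ngn3+ to Fev+ cells and is higher in alpha than in beta cells, and Slc38a1 is lower in alpha cells than in both others. The fitted value of Slc16a5 rests on 0 UMIs in Fev+ cells.

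Enzymes that handle the same substrates were read beside the carriers, from lists chosen with earlier results of these data known. In the list for glutamine and glutamate, 3 of 9 genes tested rose from Ngn3+ to Fev+ cells and none fell, with a list median of 0.44 beside 0.02 for all genes, of which 7.86% rose and 8.81% fell. They were Glud1 (1.31), which oxidises glutamate, Glul (1.03), which makes glutamine, and Gad1 (1.1), which makes GABA from glutamate. The count was 1 with no library term or without the v2 E17.5 library. In the list for lactate and pyruvate, the dehydrogenases Ldha (-2.41) and Ldhb (-1.38) and the mitochondrial pyruvate carrier subunit Mpc1 (-2.39) fell, while Emb, a partner protein of monocarboxylate carriers, rose by 1.59, among 9 genes tested with a list median of -0.53.

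Of the 65 members, 39 had enough UMIs to be compared across all 7 classes. Each class was set against the mean of the other classes, with libraries as blocks. The split of all calls depends on the scaling: with plain totals in place of TMM the share higher was 55.0% beside 43.8% for acinar, 79.5% beside 53.0% for ductal, 81.2% beside 56.5% for endocrine, 83.3% beside 64.6% for mesenchymal, 78.3% beside 49.4% for endothelial and 64.1% beside 49.8% for immune cells. Members higher and lower were then 9 and 8 (acinar), 9 and 9 (ductal), 15 and 9 (endocrine), 16 and 8 (mesenchymal), 13 and 11 (endothelial) and 15 and 7 (immune). Of the 39, 12 were called higher in 1 class, 22 in several, and 5 in none, all with TMM scaling. The 5 not called in either direction were Slc38a1, Slc38a2, Slc38a9 (a lysosomal arginine sensor), Slc38a10 and Slc7a6. With plain totals Slc38a2 was lower in erythroid cells (-2.67).

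In the endocrine class 10 members were higher and 11 lower, while 18.9% of 13156 genes were called higher and 14.54% lower. Slc38a5 led with 7.23 ± 0.27 (log2, adjusted p = 2.41e-28). It was followed by Slc7a14, at 18.9 to 101 CPM in endocrine cells and at most 14.3 CPM elsewhere (6.15 ± 0.25), and Slc16a9, a carnitine and creatine carrier relative, at 3.18 to 18.1 CPM (5.12 ± 0.36, adjusted p = 1.43e-16). The size of the Slc16a9 fold rests in part on 1, 3 and 0 UMIs in endothelial, immune and erythroid cells. The rest were Slc7a2 (4.85), Slc16a12 (4.0), the neutral amino acid carrier Slc43a2 (3.21), Slc16a10 (2.60), Slc7a4 (2.59), the lysosomal proton-coupled carrier Slc36a1 (2.56) and Slc7a8 (2.42). The lowest was the nucleobase carrier Slc43a3 (-4.38 ± 0.33), at 0 to 2.56 CPM, followed by the lactate carrier Slc16a1 (-3.80) and the neutral amino acid exchanger Slc1a5 (-3.07). Slc6a6 (0.61), Slc3a2 (-0.41), Slc38a1 (-0.28) and Slc38a2 (-0.73) stayed under 2-fold.

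Acinar cells had 8 members higher and 10 lower (10.7% and 13.7% of all genes). Slc38a3, a glutamine, histidine and asparagine carrier at chr9:107650634-107669530, was at 15.1 and 17.8 CPM at E12.5, 69.3, 62.3, 32.5 and 55.7 CPM in the E14.5 libraries (v1 batches, v2 and Fev-Cre), and 26.7 and 38.3 CPM at E17.5. Ductal cells had 1.03 to 12.9 CPM of Slc38a3 and no other class exceeded 9.21 CPM, so that its acinar values lay above all others (4.61 ± 0.26, adjusted p = 3.01e-20). The glutamate carrier Slc1a3 (2.31 ± 0.27), at 6.62 to 19.4 CPM in acinar cells, and the glycine carrier Slc6a9 (1.51 ± 0.30), at 2.16 to 13.3 CPM, were also higher, Slc6a9 by under 2-fold without the v2 E17.5 library (0.97). The others were Slc16a12 (2.43), the lactate carrier Slc16a7 (2.35), Slc7a4 (2.25), the arginine carrier Slc7a1 (1.49) and Slc7a5 (1.33). The lactate exporter Slc16a3 was lowest in acinar cells (-4.21 ± 0.44), at 0 to 2.11 CPM. Slc38a5 was also called lower (-1.19 ± 0.41, adjusted p = 0.0121), and this call was lost when the erythroid class was left out (-0.72) and without the first v1 E14.5 batch (-1.04), the v2 E12.5 library (-0.98) or the Fev-Cre library (-0.95). The mean it was set against includes the endocrine class, where Slc38a5 was far higher. The call therefore does not place acinar cells below the remaining classes. In the list for glutamine and glutamate, 5 of 12 genes were higher in acinar cells, with the glutaminase Gls2 at 4.79 and the proline enzymes Pycr1 at 1.84 and Aldh18a1 at 1.24, and 2 were lower (Gad1 and Glul). In the arginine list 4 of 6 were higher, among them the creatine synthesis enzymes Gamt (3.97) and Gatm (1.37), or 2 without the v2 E17.5 library, and in the list for serine and glycine synthesis 3 of 8 (Phgdh 3.04, Shmt1 2.05 and Mthfd1 1.53), or 5 with plain totals, with the erythroid class left out or without the v2 E12.5 library. The serine and glycine list was not particular to acinar cells, with 4 of 8 higher and 1 lower in ductal and 3 of 8 higher in erythroid cells.

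In ductal cells 5 members were higher and 14 lower (12.2% and 10.9% of all genes). Slc38a3, whose acinar values all lay above the ductal ones, was among the 5. Slc16a12 was at 5.31 to 42.5 CPM (2.82 ± 0.28, adjusted p = 3.08e-12), Slc7a4, a relative of the cationic carriers, at 15.8 to 45.8 CPM (2.26 ± 0.25), and Slc1a3 at 3.84 to 21.2 CPM (1.07 ± 0.30). Slc1a3 was not called with doublets kept (0.41, adjusted p = 0.229) or without the v1 E12.5 (0.91) or Fev-Cre library (0.95). Both Slc16a12 and Slc7a4 reached similar or higher levels in endocrine cells, at 9.54 to 47.9 and 14.3 to 62.1 CPM. Slc7a8 was lowest (-2.77 ± 0.53), at 0 to 1.08 CPM, a call that was lost with barcodes of 500 or more genes (-1.78). Slc3a2 was lower by just under 2-fold (-0.96 ± 0.17, adjusted p = 6.63e-06), and Slc38a5 was lower (-2.57 ± 0.43) than a mean that includes its endocrine level. Slc38a1, at 44.2 to 84.8 CPM, differed by 0.63 (adjusted p = 0.00174) and Slc6a6 by 0.53 (adjusted p = 0.00912), both under 2-fold.

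Set directly against ductal cells, acinar cells had 11 members higher and 2 lower, against 5.43% and 8.81% of all genes. With plain totals 9 were higher and 6 lower, and 17% of all calls were higher, beside 38.1%. The largest were Slc38a3 (3.01 ± 0.38, adjusted p = 1.95e-08), Slc16a6 (2.34 ± 0.35) and Slc7a1 (2.33 ± 0.28, adjusted p = 7.79e-09). Slc7a1 was at 10.3 to 40.004 CPM in acinar and 0 to 9.56 CPM in ductal cells, with no overlap, although the v1 E17.5 acinar value rests on 3 UMIs. The others were Slc7a8 (2.12), Slc7a2 (2.00), Slc6a9 (1.73), the neutral amino acid exchangers Slc1a4 (1.66) and Slc1a5 (1.61), Slc7a5 (1.5), Slc16a1 (1.06) and Slc1a3 (1.06). Slc16a3 (-1.61 ± 0.50) and Slc7a7 (-1.0 ± 0.38), the light chain for cationic and neutral amino acid exchange, were lower. Slc16a3 was not called without the v2 E17.5 library (-0.08) or by DESeq2 (-1.13). Slc7a7 lay at the threshold and was not called by DESeq2 (-0.83, adjusted p = 0.136) or in 8 other settings, 4 of which left out 1 library. Slc3a2 (0.73) and Slc6a6 (-0.75) differed by less than 2-fold at adjusted p = 0.00612 and 0.011, and Slc38a5 (1.18, adjusted p = 0.074), Slc38a2 (0.03) and Slc38a1 (-0.08) did not pass the test.

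The mesenchymal class had 10 members higher and 12 lower (17.7% and 9.74% of all genes), led by glutamate carriers. Slc1a6, a glutamate carrier known from cerebellar Purkinje cells, was at 1.82 to 7.68 CPM (4.51 ± 0.32, adjusted p = 1.5e-17). It had 1 UMI each in endothelial, immune and erythroid cells, so the size of its fold rests in part on very low counts. Slc1a3, which is known from glia, was at 14.53 and 36.6 CPM at E12.5, 36.8 to 88.2 CPM at E14.5 and 32.1 and 19.7 CPM at E17.5 (3.59 ± 0.23, adjusted p = 6.29e-19). Slc16a9 (2.85 ± 0.44), Slc16a3 (2.09), Slc43a3 (1.62), the lysosomal amino acid carrier Slc36a4 (1.51), Slc1a4 (1.25), Slc16a1 (1.14) and the creatine carrier Slc6a8 (1.1) were among the rest. Slc16a9 too had few or no UMIs in endothelial, immune and erythroid cells. Slc16a10 was lowest (-3.38 ± 0.48), at 0.759 to 2.41 CPM. Slc6a6 was lower (-1.31 ± 0.19), though under 2-fold with plain totals (-0.73), and Slc3a2 differed by -0.68, Slc38a1 by -0.48 and Slc38a2 by 0.23, under 2-fold. Slc38a5 was called lower (-2.14 ± 0.40), against a mean that includes its endocrine level.

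Endothelial cells had 6 members higher and 13 lower (12.1% and 12.4% of all genes). Slc43a3 was at 112 and 69.3 CPM at E12.5, 147, 131, 68.2 and 57.1 CPM at E14.5 and 142 and 127 CPM at E17.5 (2.74 ± 0.22, adjusted p = 3.77e-15). Slc7a7 (1.97 ± 0.36), Slc16a3 (1.93 ± 0.35), Slc43a2 (1.77) and Slc6a6 (1.65 ± 0.18) were among the others. Slc6a6 was at 39.6 to 198 CPM, and it rose with stage in this class (1.39 ± 0.31, adjusted p = 0.0189), the 1 call among 7 members tested, with 3.22% of all genes called higher and 1.17% lower. DESeq2 did not make that call (adjusted p = 0.0521), nor did edgeR without any 1 of the 4 libraries at the stage ends (1.08 without v1 E12.5, 1.24 without v1 E17.5, 2.37 without v2 E12.5 and 1.71 without v2 E17.5). Slc16a7 had no UMI in any of 8 endothelial libraries, which allows up to 0.605 CPM. Slc3a2 was lower (-1.11 ± 0.20), at 58.6 to 120 CPM, but under 2-fold with plain totals (-0.47), with the erythroid class left out (-0.87) and without the v1 E12.5 library (-1.0). Slc38a5 was lower as well (-2.13 ± 0.52), against a mean that includes its endocrine level. That call was lost with doublets kept (-0.25, adjusted p = 0.756) and with no library term (-1.61, adjusted p = 0.0539).

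Immune cells had 12 members higher and 8 lower (16.3% and 16.4% of all genes). Slc6a13, a carrier of GABA and taurine, was at 59.7 and 17.7 CPM at E12.5, 51.3, 247, 69.7 and 35.5 CPM at E14.5 (v1 batches, v2 and Fev-Cre), and 174 and 97.6 CPM at E17.5 (5.14 ± 0.27, adjusted p = 1.69e-22). No other class had more than 12.4 CPM of Slc6a13, so the groups did not overlap. Slc16a7 was at 7.0 to 18.4 CPM (4.59 ± 0.35) and Slc7a8 at 21.9 to 51.3 CPM (4.57 ± 0.26). Slc7a8 and Slc7a7 (4.50), which was at 28 to 107 CPM, are both light chains that need Slc3a2 as their heavy chain. By CPM, Slc3a2 was itself highest in immune cells of every library, at 247 to 406 CPM against at most 172 CPM in any other of the 7 classes. Its immune fold with TMM scaling was 1.48 ± 0.14 (adjusted p = 6.91e-13). This ranking depends on the scaling, since the erythroid fold of Slc3a2 was larger with TMM (1.79) and -1.37 with plain totals. The other members higher in immune cells were Slc43a2 (3.02), the lysosomal glutamine carrier Slc38a7 (2.69), Slc16a3 (2.40), Slc16a6 (2.30), Slc38a6 (2.09), Slc16a10 (2.08) and Slc36a1 (1.13). The lowest was Slc38a3 (-3.57 ± 0.62), at 0 to 1.15 CPM. Slc38a5 was called lower (-2.14 ± 0.44), against a mean that includes its endocrine level. That call was lost with doublets kept (-0.44, adjusted p = 0.429). Slc38a1 (0.90), Slc6a6 (0.43) and Slc38a2 (-0.12) stayed under 2-fold.

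Erythroid cells had 14 members higher and 8 lower, against 11% and 18.1% of all genes, but these counts depend on the scaling. The erythroid markers, globin genes among them, summed to 546626 to 831120 CPM in these cells, and TMM gave their sums a factor of 0.131 at the median, against class medians of 1.13 to 1.43 elsewhere. With plain totals 4 members were higher and 26 lower, the median gene shifted from -0.31 to -3.34, and 1.7% of all calls were higher, beside 37.9%. Slc16a10 and Slc6a9 kept their direction under both scalings. Slc16a10 was at 14.7 to 99.2 CPM (5.62 ± 0.26, adjusted p = 9.83e-25), and Slc6a9 at 7.15 and 4.40 CPM at E12.5, 20.7, 2.53 and 4.58 CPM in the E14.5 libraries and 14.6 and 5.35 CPM at E17.5 (5.06 ± 0.30, adjusted p = 3.21e-20). Glycine is the substrate of the first enzyme of heme synthesis. In the list for heme synthesis 9 of 10 genes were higher in erythroid cells, with a median of 4.45, led by Alas2 (10.49) and Fech (7.69). With plain totals 6 of the 10 were higher (median 1.51, beside -3.34 for all genes), with Alas2 at 7.29 and Fech at 4.55. Slc25a38, the mitochondrial glycine carrier, was at 2.90 (-0.078 with plain totals), and Alas1, the form of the first enzyme used outside red cells, was lower (-1.62). Alas2 is among the markers that named the class. The letters AGATAA, to which GATA factors such as the erythroid Gata1 bind, were searched on both strands and found in 11.2% of all mouse promoters and in 0 of 13 promoters of the 9 members higher in erythroid cells that could be matched. Slc43a1 was higher by 4.66, and the other members called higher were Slc16a6 and Slc43a3 (3.82 each), Slc6a13 (3.06), Slc16a1 (3.02), Slc38a5 (2.95), Slc16a3 (2.84), Slc7a5 (2.54), Slc1a5 (2.19), Slc1a4 (2.04), Slc3a2 (1.79) and Slc16a13 (1.04). Slc38a5 was at 0.06 with plain totals, and Slc3a2, whose erythroid level of 19.2 to 76.4 CPM was the lowest of the classes at the median, turned to -1.37. Slc38a7 had the lowest fitted value, but on 2 UMIs over all erythroid cells (0 to 2.07 CPM), and its call was lost without the v2 E17.5 library (adjusted p = 0.0664). Slc6a6 was also lower (-1.56 ± 0.30). None of 15 members tested was called between E12.5 and E17.5 in this class by edgeR or DESeq2, with 0.607% of all genes called higher and 1.43% lower. At unadjusted p under 0.05 there were 5 by edgeR and 4 by DESeq2, and 1 was called by edgeR when either v1 batch at E14.5 was left out.

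**Figure D3:**
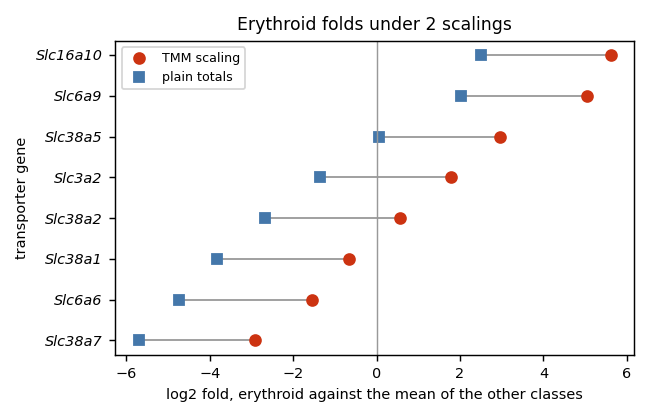
Log2 fold change of 8 members in erythroid cells against the mean of the other classes, with TMM scaling (circles) and with plain totals (squares). Slc16a10 and Slc6a9 lie above 0 under both, Slc38a5 lies near 0 with plain totals, and Slc3a2 and Slc38a2 change sign.

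Stage was compared within each class between E12.5 and E17.5 in the Swiss Webster libraries, with kit as a term, so that each stage end has 1 library of each kit. In endocrine cells 5 of 25 members rose and 2 fell (4.59% and 3.61% of all genes). Slc38a5 fell by 2.34 ± 0.44 (log2, adjusted p = 0.005). The E12.5 level exceeded the E17.5 level 7.47-fold in the v1 and 4.62-fold in the v2 libraries over all endocrine cells. Within classes, the same ratio was 3.5 and 4.92 in alpha cells (v1 and v2), 9.36 and 5.53 in Ngn3+ cells and 5.58 in Fev+ cells (v2 only), which were not tested by class. Slc38a11 (2.29 ± 0.62), Slc7a8 (2.28 ± 0.48), Slc16a12 (1.74), Slc6a6 (1.52 ± 0.25) and Slc16a10 (1.18) rose, and Slc43a1 fell by 2.11 ± 0.60. The Slc43a1 call was lost by DESeq2 (adjusted p = 0.0905), with doublets kept, and without the second v1 E14.5 batch or any of the v2 libraries, at -0.50 without v2 E12.5 and at -1.69 to -2.16 in the other settings that lost it. Slc38a11 was lost with plain totals (2.00, adjusted p = 0.0582) and without the v1 E17.5, v2 E12.5 (1.68), v2 E14.5 or v2 E17.5 library, Slc7a8 without the v2 E12.5 (2.34) or v2 E17.5 library (1.40), and Slc6a6 without the v2 E12.5 library (1.47). The Slc38a5 call was lost without the v1 E17.5 (-2.14, adjusted p = 0.0616) or the v2 E17.5 library (-2.53, adjusted p = 0.0831). The mix of endocrine classes changed with stage, and its part in these values was not tested. Without the v2 E12.5 or the v2 E17.5 library 1 member was called in each case, and without the first v1 batch at E14.5 there were 12. With plain totals 31.2% of all calls were higher, beside 56.0%, with 3 members up and 2 down. Slc3a2 (0.70), Slc38a2 (0.42) and Slc38a1 (-0.44) did not pass the test.

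In acinar cells 15 of 38 members tested were called higher at E17.5 and 1 lower, with 10.7% and 10.6% of all genes. The count rests on few cells, on the scaling and on a spread shared over genes of a like level. The v1 E17.5 library held 23 acinar cells with 74993 UMIs, so that 1 UMI there is 13.3 CPM, and no member was called without the v2 E17.5 library and 3 without the v2 E12.5 library. The v2 E17.5 acinar sum had a TMM factor of 0.624, against 1.13 at E12.5. With plain totals 10 members rose and 9 fell, the median gene moved from -0.10 to -0.78, and 15.6% of all calls were higher, beside 50.2%. Slc7a1 rose by 2.23 ± 0.48 (log2), from 15.1 and 10.3 CPM at E12.5 to 40.004 and 31.1 CPM at E17.5 (v1 and v2). Slc7a3, another arginine carrier, had the largest fitted fold (4.53 ± 0.98, adjusted p = 6.7e-05), from 0 and 0.153 CPM to 13.3 and 1.97 CPM, on 0, 3, 1 and 40 UMIs. These are too few to fix its size, and the call was lost without the v2 E12.5 or v2 E17.5 library. Slc16a7 (2.96 ± 0.76) went from 0 and 1.27 CPM to 13.3 and 5.26 CPM, on 0, 25, 1 and 107 UMIs. Slc38a3 (1.85) and Slc1a5 (1.75) also rose. Slc7a2 (3.87), Slc1a4 (3.32), Slc7a8 (3.29), Slc16a6 (2.62), Slc36a1 (2.46), Slc6a9 (2.33), Slc38a10 (1.87), Slc38a5 (1.57), Slc7a5 (1.28) and Slc7a4 (1.27) complete the 15. The Slc38a5 call was lost with plain totals (0.92, adjusted p = 0.206) and without the v1 E12.5 (1.47), v2 E12.5 (1.99) or v2 E17.5 library (2.36). Slc7a2, Slc1a4 and Slc7a8 had no UMI in the v1 E17.5 acinar cells. The 1 that fell was Slc43a3 (-2.10 ± 0.80), from 10.8 and 5.5 CPM to 0 and 0.884 CPM. That call was lost by DESeq2 (adjusted p = 0.202), with doublets kept, and without the second v1 E14.5 batch or any 1 of the 4 libraries at the stage ends. Slc3a2 (0.54, adjusted p = 0.32), Slc6a6 (-1.12, adjusted p = 0.0634), Slc38a1 (-0.97) and Slc38a2 (0.28) did not pass the test.

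The amino acid response is the transcription programme that Atf4 drives when amino acids are scarce or protein folding is strained. In the list for this response 7 of 12 genes rose in acinar cells between E12.5 and E17.5 and none fell, with a list median of 1.51 beside -0.10 for all genes, of which 10.7% rose. In mesenchymal cells 5 of the 12 rose and none fell over the same stages (median 1.02, with 9.6% of all genes higher), and whether acinar and mesenchymal cells differed was not tested. In ductal, endocrine and immune cells 1 gene of the list rose, with 1 fall in endocrine cells, in erythroid cells 1 fell, and none was called in endothelial cells. The change was higher in acinar than in ductal cells for 4 of 11 and lower for none, with 11.4% of all genes higher and 10.9% lower. In that comparison 11.6% of all calls were higher with plain totals, beside 51.0%. In acinar cells 6 rose with plain totals (median 0.87), 4 without the v2 E12.5 library and 2 without the v2 E17.5 library. In mesenchymal cells 2 rose with plain totals or without the v1 E12.5, the second v1 E14.5 or the v2 E17.5 library, and 1 fell without the v1 E12.5 library. Those that rose in acinar cells included Chac1 (5.34), Trib3 (3.26), the asparagine synthetase Asns (3.08) and Atf4 itself (1.17, and 0.52 with plain totals). Atf4 and C/EBP proteins bind a composite element, which was searched as TGATGNAA on both strands. It was present in 3.97% of all mouse promoters and in 4 of 62 promoters of members, 1 each of Slc1a4 and Slc7a11 and 2 of Slc7a7. Of the 15 members that rose in acinar cells, 7 had a promoter in the table and Slc1a4 was the 1 with the element. Its promoter is shown from 250 bases before to 20 bases after the start (RefSeq, GRCm38.p6), with the element, here on the opposite strand and starting 4 bases before the start site, in capitals.
Slc1a4, chr11:20332694-20332963, minus strand: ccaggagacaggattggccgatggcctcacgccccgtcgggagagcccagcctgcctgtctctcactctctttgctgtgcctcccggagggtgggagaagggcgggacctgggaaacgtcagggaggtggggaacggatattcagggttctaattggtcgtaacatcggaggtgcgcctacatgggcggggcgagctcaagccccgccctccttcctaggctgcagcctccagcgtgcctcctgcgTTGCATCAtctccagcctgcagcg

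Slc1a4 was at 4.31 and 0.968 CPM in acinar cells at E12.5 and at 0 and 7.52 CPM at E17.5 (v1 and v2), the last on 153 UMIs. The v1 value of 0 at E17.5 comes from 74993 UMIs, too few to show a level of that size. Slc7a11 entered the mesenchymal stage comparison alone and was not called there (-1.22, adjusted p = 0.419).

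**Figure D4:**
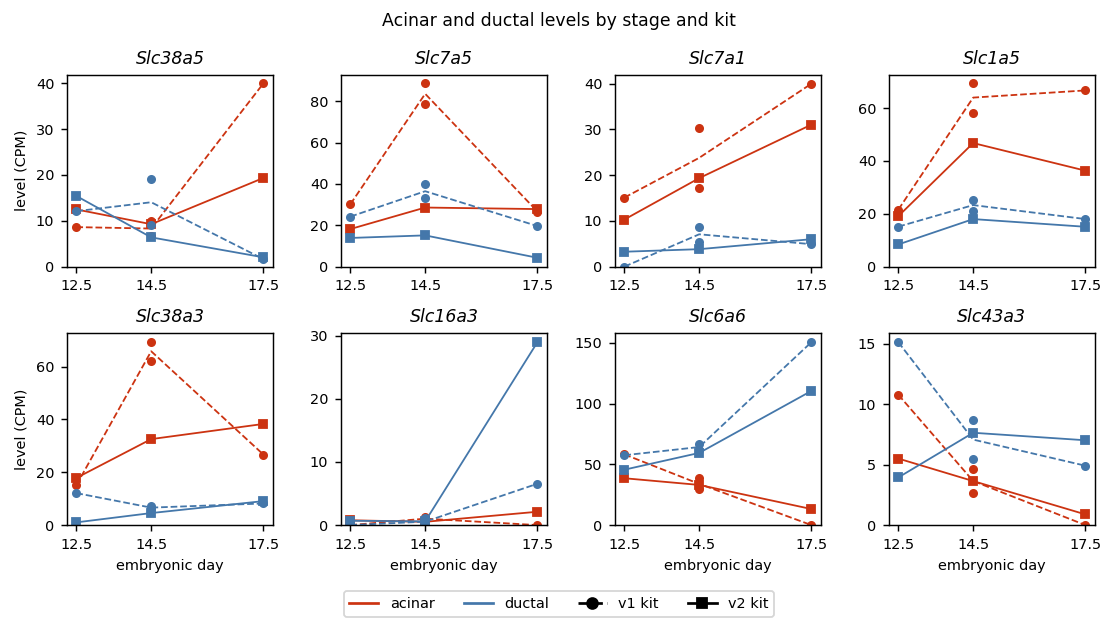
CPM of 8 members in acinar (red) and ductal (blue) cells by embryonic day, with v1 libraries as circles and v2 libraries as squares. Lines join the stages within a kit through the mean of the E14.5 values. Slc16a3 and Slc6a6 are highest in E17.5 ductal cells in both kits, and Slc7a1 is higher in acinar than in ductal cells at every stage. The v1 E17.5 acinar point stands for 23 cells.

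In ductal cells 2 of 27 members rose and 1 fell (3.77% and 1.81% of all genes). Slc16a3, the lactate exporter of glycolytic cells, was at 0 and 0.686 CPM at E12.5, 0 to 1.09 CPM in the Swiss Webster libraries at E14.5, and 6.55 and 29.0 CPM at E17.5 (5.33 ± 0.87, adjusted p = 0.00243). The E17.5 values rest on 4 and 912 UMIs. Slc6a6, the taurine carrier, was at 57.5 and 45.6 CPM at E12.5 and 151 and 110 CPM at E17.5 (1.47 ± 0.29, adjusted p = 0.00853). Slc38a5 was at 12.1 and 15.4 CPM at E12.5 and 1.64 and 2.03 CPM at E17.5 (-2.69 ± 0.62, adjusted p = 0.0227), levels below the mark set by endocrine markers in these cells. In the list for lactate and pyruvate 2 of 9 genes rose, the dehydrogenase Ldhb (1.15) and the kinase Pdk1 (1.53), and Emb fell (-2.32). None rose without the v1 E12.5, v2 E12.5 or v2 E17.5 library. Without the v2 E12.5 library none of the 3 members was called, and without the v2 E17.5 library 1 was. Slc3a2 (-0.45), Slc38a2 (0.56) and Slc38a1 (-0.22) did not pass the test.

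The stage change was then compared between acinar and ductal cells of the same libraries. It differed in 16 of 38 members, 10 with the higher change in acinar and 6 in ductal cells, against 11.4% and 10.9% of all genes. Slc38a5 (4.32 ± 0.43, adjusted p = 3.42e-21) and Slc7a2 (3.77 ± 1.25, adjusted p = 0.0115) were at one end, and Slc16a3 (-3.19 ± 0.87, adjusted p = 0.00173) and Slc16a10 (-3.11 ± 0.68, adjusted p = 4.65e-05) at the other. These p-values rest on a spread shared over genes, not on each gene's own spread, with 1 pool of each kit at each stage end. The Slc38a5 call was lost without the v2 E17.5 library (5.25, adjusted p = 0.161), and its ductal level lay below the mark set by endocrine markers in 8 of 8 libraries. Slc16a10 went from 6.47 and 4.23 to 0 and 0.737 CPM in acinar cells and from 9.08 and 1.89 to 14.7 and 5.56 CPM in ductal cells. Slc6a6, which rose in ductal cells, was at 58.2 and 38.6 CPM at E12.5 and 0 and 13.2 CPM at E17.5 in acinar cells (difference -2.15 ± 0.26, adjusted p = 7.63e-15). Slc3a2 was also called (1.11 ± 0.23), but not with plain totals (0.42, adjusted p = 0.0837) or without the v2 E12.5 or v2 E17.5 library, and Slc38a1 (-0.78, adjusted p = 0.00815) was under 2-fold. With plain totals the split was 4 against 13, with 11.6% of all calls higher beside 51.0%, and DESeq2 called 5 members, Slc7a2, Slc16a3 and Slc16a10 not among them (adjusted p = 0.193, 0.212 and 0.123). Without the v2 E12.5, v2 E14.5 or v2 E17.5 library 3, 10 and 1 members were called.

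In mesenchymal cells 5 of 44 members rose with stage and none fell by edgeR (9.6% and 3.42% of all genes). The v2 mesenchymal cells are those left after cells positive for CD140a had been removed, so the kits hold unlike mixes of this class. The part of the cell mix in these values was not tested. Slc7a10, a carrier of small neutral amino acids such as serine and glycine, was at 1.87 and 1.12 CPM at E12.5 and 5.79 and 4.87 CPM at E17.5 (2.13 ± 0.49, adjusted p = 0.0222). Slc7a4 (1.97 ± 0.46) was at 2.28 and 5.06 CPM and then 4.05 and 25.0 CPM. Slc16a3 (1.95), Slc1a5 (1.52) and Slc43a3 (1.35) were the others. The calls of Slc7a10 and Slc7a4 were lost with plain totals (adjusted p = 0.0535 and 0.0685). Both were also lost without the v1 E12.5, v2 E12.5 or v2 E17.5 library, the last with 1.65 for Slc7a10 and 1.0 for Slc7a4, and Slc7a10 without the second v1 E14.5 batch. Without the v1 or the v2 E12.5 library 2 members were called. With plain totals 3 rose, and 60.5% of all calls were higher, beside 73.7%. In immune cells Slc16a3, at 41.4 and 21.6 CPM at E12.5 and 114 and 99.9 CPM at E17.5, was the 1 member called of 23 (2.07 ± 0.36, adjusted p = 0.0185), with 2.28% of all genes called higher and 0.176% lower. Slc16a3 was thus called higher at E17.5 in ductal, mesenchymal and immune cells, and it had the same direction in both kits in all 3. In ductal and immune cells the same direction was a condition for naming it, so it is no separate support there. The immune call was lost without any 1 of 3 libraries, v1 E17.5, v2 E12.5 or v2 E17.5, 3 immune members were called without the first v1 E14.5 batch, and whether the rise differed among these classes was not tested.

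The remaining 26 members had 31 to 950 UMIs in all cells and were not tested across classes, and 14 of them entered no test at all. Among the 7 classes, the one with the most UMIs was mesenchymal for 11 members, endocrine for 9, ductal for 3, immune for 2 and acinar for 1, and for 8 members it held under 50% of them. Shares here are of the UMIs in the 7 classes, and the neural, mixed and unnamed cells that were set aside are not in them (for Slc6a15 the classes hold 65 of 156 UMIs). The 11 were Slc7a10 (96.4% in mesenchymal cells), the glutamate carriers Slc1a7 (92.5%) and Slc1a2 (74.9%), the cystine carrier light chain Slc7a9 (88.6%), Slc16a4 (82.3%), Slc16a14 (80.7%), the vesicular carrier Slc6a17 (57.7%), the proline carrier Slc6a7 (48.1%), the serotonin carrier Slc6a4 (44.9%), Slc6a15 (36.9%) and the cystine-glutamate exchanger light chain Slc7a11 (30.6%). The 9 were Slc38a11 (92.3%), Slc38a8 (84.0%), the GABA carrier Slc6a11 (72.2%), the neutral amino acid carrier Slc6a19 (70.1%), Slc3a1 (59.2%), Slc16a5 (56.4%), Slc16a11 (38.6%), Slc16a8 (38%) and the noradrenaline carrier Slc6a2 (30.6%). Slc1a1 (69.5%), Slc6a14 (67.5%) and Slc36a2 (34.3%) were most counted in ductal cells, Slc6a12 (84.4%) and Slc7a13 (80.0%) in immune cells, and Slc7a3 (59.2%) in acinar cells. In the remaining lists, 3 of 18 genes of amino acid sensing by mTORC1 and 3 of 7 of glutathione synthesis rose in acinar cells with stage, with list medians of -0.13 and 1.17, and none fell. Of all genes 10.7% rose in that comparison, with a median of -0.10. With plain totals 1 rose and 5 fell of the first list, and 2 rose and 1 fell of the second. Without the v2 E17.5 library 0 and 2 rose. The shares of UMIs above also follow the number of cells and the UMIs of each class.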

How the data were processed

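Droplet libraries of embryonic mouse pancreas were deposited as gene-by-barcode UMI counts. Per the labels and methods, the authors aligned reads to mm10 and counted UMIs with Cell Ranger 1.1 (v1 kit) or 2.1 (v2 kit), and the Fev-Cre reads also to a genome with the reporter sequences. The members and lists were chosen with earlier results of these data known, and some genes of these families are not reported here.

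Barcodes with at least 200 genes were clustered separately for v1, v2 and Fev-Cre libraries (2000 variable genes without members, 20 components, Leiden resolution 1) and named from markers. The naming, mixed-cluster and leading-gene thresholds were revised after clusters had been seen, in part so that Fev+ cells of the v2 libraries and the main Ngn3+ cluster could be named. Cells with at least 30% of the usual marker share of 2 compartments (2288, 0.152% to 8.63% of a library) and clusters of mixed markers (2332 cells) were set aside as doublets, as were 2118 unnamed (1797 from the v2 E12.5 library) and 1034 neural cells. At a Leiden resolution of 2 the v2 E12.5 library held 1970 acinar and 2246 ductal cells in place of 1555 and 910. In the Fev-Cre library 536 cells were named Fev+ and 565 beta, and 205 and 986 with the alignment without reporters. With doublets kept, no cell of the v2 or Fev-Cre libraries was named Fev+, so that setting compares Fev+ cells in v1 libraries only. Barcodes shared between libraries were at most 1.79%.

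UMI counts were summed per class and library (20 or more cells) and tested in 19 comparisons with edgeR 4.0.16 (filterByExpr, TMM, quasi-likelihood), with DESeq2 1.42.0 as an alternative. Each library is a pool. Comparisons of classes and of stage changes between acinar and ductal cells hold the library as a term. For classes, p-values measure how class differences vary among pools that differ in stage and kit. For the difference of stage changes, stage is in the fit, so the pools left to vary are those of the same stage, mostly from unlike kits. In stage comparisons within a class, each stage and kit has 1 pool except v1 at E14.5, so p-values measure mainly how the kits disagree on stage. In the acinar stage fit and the difference of stage changes, p-values equal those of a normal test. There the spread is shared over genes of a like level, and a gene's own spread among pools does not enter. In the ductal stage fit it enters in part, so acinar and ductal counts of calls rest on unlike estimates of spread. Intervals and floors cover counting error only. Named genes were, for each class, the 3 members with the largest called rise that were above the median of the other classes in every library and the 1 with the largest called fall, the 3 called with the largest change each way in direct comparisons, the 2 each way with the same sign in both kits for stage, and always Slc38a5, Slc3a2 and the 5 members with the most UMIs. Not every value of these last is printed. Other members are given in clauses or in counts alone. Recovery in simulated counts was taken at adjusted p under 0.05 alone. The shares for 2-fold changes therefore overstate what calls with the 2-fold rule would recover. All simulated sums had the same mean profile apart from the changed genes, which were drawn above a floor of expected counts. Real classes differ in many genes and in their scaling, so these shares do not give the recovery for members, least of all for those with few UMIs. On counts simulated with the dispersion of the real sums, 93% of 2-fold changes were recovered for acinar against the other classes (12199 genes), 83.3% of the 66 of 100 that passed the filter for Fev+ against Ngn3+ (55 in all, 7595 genes), 5% of 2-fold and 59% of 4-fold changes for acinar stage (13440 genes), and 31% and 93% for the difference of stage changes (13234 genes). With a fixed higher dispersion, tried first, none of the stage changes was recovered, so stage recovery depends on it. Gene positions are from GENCODE M21.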

Additional observations from a re-analysis of the deposited data

Results flagged for a closer look

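The change from E12.5 to E17.5 differed between acinar and ductal cells by the test of the difference itself in the members listed here. The difference (acinar change minus ductal change, log2) was above 0 for Slc38a5 (4.32), Slc7a2 (3.77), Slc7a8 (3.53), Slc7a5 (2.92), Slc1a4 (2.47), Slc16a6 (2.45), Slc38a10 (2.33), Slc1a3 (1.37), Slc7a1 (1.32) and Slc3a2 (1.11, and 0.42 with plain totals). It was below 0 for Slc16a3 (-3.19), Slc16a10 (-3.11), Slc43a3 (-2.58), Slc16a11 (-2.49) and Slc6a6 (-2.15). In ductal cells Slc38a5 lay below the level set by endocrine markers in 8 of 8 libraries, its v1 E17.5 acinar value rests on 3 UMIs, and its call was lost without the v2 E17.5 library (adjusted p = 0.161). DESeq2 called 5 members in this comparison, with adjusted p = 0.193 for Slc7a2, 0.212 for Slc16a3 and 0.123 for Slc16a10, plain totals gave 4 above and 13 below 0, and edgeR without the v2 E17.5 library called 1. The v1 E17.5 acinar sum behind each holds 74993 UMIs from 23 cells.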

How the results depend on the processing

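Classes were compared with the library as a block and stages with the kit as a term. For pairing by replicate number across stages, no paired analysis was possible because the groups share fewer than 2 numbers (batch 2 in the v1 libraries). Of the counts of called members under alternatives, 267 stayed within 1.5 times of the reported count and 39 did not, and 72 of 148 named folds kept their side of the threshold under every alternative that tested them. A fold not tested under an alternative is not counted as changed there. DESeq2 called 10 members for acinar stage, 8 for mesenchymal, 0 for endothelial and 5 for the difference of stage changes. With no filter beyond 1 UMI the counts were 34 (endocrine), 20 (Fev+ against Ngn3+), 9 (alpha against Fev+), and 6, 12, 9 and 3 (ductal, endocrine, mesenchymal and immune stage). Alpha against beta gave 3 with doublets kept, 3 with the alignment without reporters and 2 with no library term, and endothelial stage gave 2 with doublets kept. Leaving out 1 library gave 0 to 21 called members for acinar stage, 0 to 4 for ductal, 1 to 12 for endocrine, 2 to 6 for mesenchymal, 0 to 1 for endothelial, 0 to 3 for immune and 0 to 1 for erythroid stage, 1 to 16 for the difference of stage changes, 3 to 7 for alpha against beta and 7 to 15 for Fev+ against Ngn3+, where 7 is without the Fev-Cre library. Plain totals without TMM, an alternative chosen after the data were seen, gave 3 for mesenchymal stage, turned Slc3a2 (-1.37) and Slc38a2 (-2.67) in erythroid cells, and moved the share of higher calls among all genes by over 10 points in 14 of 19 comparisons. As a share of cells after thinning, the log2 ratio of Slc38a5 in acinar to the median of the other classes was 0.11, beside -0.090 from CPM, and the log2 ratio of Slc38a1 in endocrine to the median of the other classes was -0.091, beside 0.075, so both changed sign. The causes were not tested.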
